A study of Homo sapiens with 9 samples.

Results

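The 10 genes described here encode enzymes that reduce or oxidise aldehydes and ketones: the aldo-keto reductases AKR1B1, AKR1B10, AKR1C1, AKR1C2 and AKR1C3, the aldehyde oxidase AOX1, and the aldehyde dehydrogenases ALDH1A1, ALDH1A3, ALDH2 and ALDH3A2. They were found by gene symbol, and all 10 were among the 18364 genes of the table. They were chosen by measured values, namely their levels and differences in these same tumours, so their values are a description and carry no test. The RNA came from 9 terminal-stage tumours that LN229 cells, a long-established human glioblastoma line, had formed after intracranial injection into nude mice, which lack T cells. In 6 of them the cells had the genotype TAZ-4SA, used in the study as the active state of TAZ, and in the other 3 the cells had the empty vector (EV). TAZ is a transcriptional co-activator of the Hippo pathway encoded by WWTR1. Both groups come from 1 cell line, and how the construct was driven, whether a line was a clone and whether animals were pooled is not given in the sources used here.

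In these tumours AOX1 was higher with TAZ-4SA, while AKR1C1, AKR1C2, AKR1C3, ALDH1A1 and ALDH1A3 were lower. The mean level of AOX1 was 134 ± 49.9 CPM (reads scaled to library size) in the 6 TAZ-4SA tumours and 0.294 ± 0.0535 CPM in the 3 EV tumours (SD). The 3 AKR1C genes summed to 4.34 ± 4.59 CPM in TAZ-4SA against 146 ± 49.98 CPM in EV, and ALDH1A1 with ALDH1A3 to 35.5 ± 28.98 CPM in TAZ-4SA against 180 ± 41.8 CPM in EV (SD, n = 6 and n = 3). AKR1B1, AKR1B10, ALDH2 and ALDH3A2 did not pass the threshold. A gene is said to be called, or to have risen or fallen, where the limma fit over all 15578 genes tested gave a Benjamini-Hochberg adjusted p under 0.05. Of the 10 genes, 1 was called higher and 5 lower, where 9.02% of all genes tested were called higher and 13.3% lower (22.4% in either direction). The groups did not overlap for the same 6 genes, 1 higher and 5 lower, where that held for 10.8% and 21.3% of all genes tested. Since the genes were chosen on this contrast, nothing is read from these counts. The median log2 fold change of the 10 genes was -2.52 and that of all genes tested -0.85, and with quantile normalization the median of all genes became -0.15, so a log2 fold change near -0.85 lies close to the middle of the table.

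Aldo-keto reductases use NADPH to turn aldehydes and ketones into alcohols. Their substrates include steroids, prostaglandins, sugars, retinaldehyde and the aldehydes left by lipid peroxidation, and AKR1B10 and the AKR1C genes are known targets of NRF2, the transcription factor of the oxidative stress response. Aldehyde dehydrogenases use NAD or NADP to turn aldehydes into acids, and those of the ALDH1A group make retinoic acid. ALDH1A1 and ALDH1A3 are used as markers of stem-like cells in glioblastoma, and ALDH1A3 is tied to its mesenchymal state. Aldehyde oxidase makes acids from aldehydes without a nicotinamide cofactor, on a molybdenum centre, and is best known from drug metabolism in the liver.

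The libraries differed in depth and detection. Recovered reads lay between 3144861 and 31468135 in the TAZ-4SA tumours and between 17314672 and 21576264 in the EV tumours. Of the genes tested, 7.75% to 30.8% had 0 reads in each TAZ-4SA library, against 0.956% to 1.34% in each EV library. Among the TAZ-4SA libraries this share did not follow depth. It was 25.7% in tumour 4, with 31468135 reads, but 7.75% in tumour 5, with 3299325 reads, and 16.7% in tumour 6, with 3144861 reads. The cause of the genes at 0 reads was not tested. Of the 10 enzyme genes, 5 to 9 had at least 1 read in a TAZ-4SA tumour and 9 or 10 in an EV tumour. WWTR1 stood at 331 ± 74.6 CPM in TAZ-4SA against 120 ± 3.17 CPM in EV (SD, n = 6 and n = 3), and the groups did not overlap. The 7 glioblastoma markers listed, all in the table, summed to 2402 to 3793 CPM in TAZ-4SA against 3163 to 3574 CPM in EV. Most of this sum was VIM, so it does not test the LN229 label. Of the 7, EGFR and CD44 were called higher and NES lower, where 22.4% of all genes tested were called: EGFR stood at 375 ± 89.3 CPM in TAZ-4SA against 10.35 ± 2.15 CPM in EV, CD44 at 309 ± 69.9 CPM in TAZ-4SA against 97.6 ± 14.0 CPM in EV, and NES at 158 ± 60.5 CPM in TAZ-4SA against 1324 ± 35.1 CPM in EV (SD, n = 6 and n = 3). SOX2 and OLIG2 were not called, but all TAZ-4SA tumours lay below all EV tumours. SOX2 averaged 10.8 CPM in TAZ-4SA against 37.9 CPM in EV, and OLIG2 4.19 CPM in TAZ-4SA against 34.97 CPM in EV. VIM and GFAP were not called and overlapped. In such bulk samples, fewer cells of a type and less RNA per cell cannot be told apart.

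**Figure D1:**
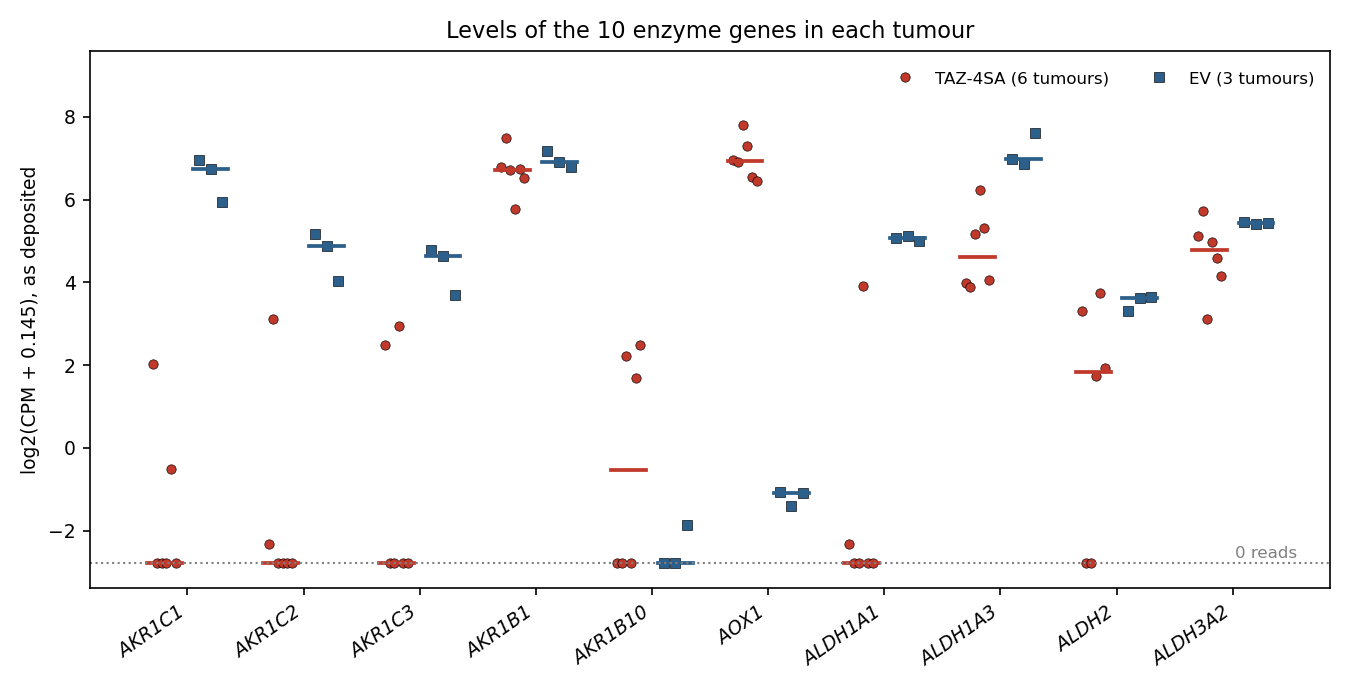
Deposited log2 levels of the 10 genes, as log2 of CPM plus the authors' prior of 0.145 CPM, with 1 point per tumour and a line at the median, for TAZ-4SA (6 tumours) left of EV (3 tumours). AOX1 is the gene whose TAZ-4SA points all lie above its EV points, and the AKR1C genes and ALDH1A1 have most TAZ-4SA points at the level of 0 reads.

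AKR1C1, AKR1C2 and AKR1C3 lie side by side on chromosome 10, with 4491 bases between AKR1C1 and AKR1C2 and 30780 bases between AKR1C2 and AKR1C3. In the GRCh38 annotation AKR1C1 spans 4963415 to 4983283, AKR1C2 spans 4987775 to 5018000 and AKR1C3 spans 5048781 to 5107686. The 3 coding sequences are shown first because their likeness bears on how reads are assigned. The lines give the first 120 coding bases of each gene from GENCODE v29 transcripts (GRCh38), 5′ to 3′, with capitals at the 19 positions where the 3 genes are not all identical.
AKR1C1: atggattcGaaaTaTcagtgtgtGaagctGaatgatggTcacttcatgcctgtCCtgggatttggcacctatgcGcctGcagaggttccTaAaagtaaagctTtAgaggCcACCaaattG
AKR1C2: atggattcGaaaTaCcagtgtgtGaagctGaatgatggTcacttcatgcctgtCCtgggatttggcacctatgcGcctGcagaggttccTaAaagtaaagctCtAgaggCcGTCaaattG
AKR1C3: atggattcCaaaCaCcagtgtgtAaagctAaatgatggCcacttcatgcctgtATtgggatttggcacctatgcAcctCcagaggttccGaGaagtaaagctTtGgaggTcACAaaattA
Over the whole coding sequence of 969 bases, AKR1C1 and AKR1C2 differed at 19 bases (98.0% identity), AKR1C1 and AKR1C3 at 83 (91.4%), and AKR1C2 and AKR1C3 at 87 (91.0%). Of the 50-base windows of AKR1C1, 51.6% occurred without a mismatch in AKR1C2 and 14.7% in AKR1C3. Of its 100-base windows, 18.9% occurred in AKR1C2 and 2.18% in AKR1C3. Untranslated bases were not compared. Reads could therefore be split or moved between these genes by the authors' counting, so the level of each single gene is uncertain. Their sum is free of such exchange, although reads that match several genes may also have been dropped.

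The sequences just upstream of the genes were also alike, most of all those of AKR1C1 and AKR1C2. The 250 bases before a RefSeq start of AKR1C1 and before one of AKR1C3 (GRCh38.p14) follow, since they stand before genes that fell together, at chr10:4963165-4963414 on the plus strand and chr10:5094164-5094413 on the plus strand. They are written 5′ to 3′, and capitals mark a base that has a different partner or none in the alignment. The partner is in AKR1C2 for AKR1C1 and in AKR1C1 for AKR1C3. The capital that ends the AKR1C1 line lies at the edge of the window and may stand for a gap. The AKR1C1 line opens with bases that lie outside its alignment with AKR1C2.
AKR1C1: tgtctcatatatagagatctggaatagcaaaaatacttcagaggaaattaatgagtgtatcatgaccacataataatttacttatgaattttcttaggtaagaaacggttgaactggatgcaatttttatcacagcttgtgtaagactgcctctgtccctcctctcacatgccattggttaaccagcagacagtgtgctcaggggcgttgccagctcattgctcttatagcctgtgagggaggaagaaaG
AKR1C3: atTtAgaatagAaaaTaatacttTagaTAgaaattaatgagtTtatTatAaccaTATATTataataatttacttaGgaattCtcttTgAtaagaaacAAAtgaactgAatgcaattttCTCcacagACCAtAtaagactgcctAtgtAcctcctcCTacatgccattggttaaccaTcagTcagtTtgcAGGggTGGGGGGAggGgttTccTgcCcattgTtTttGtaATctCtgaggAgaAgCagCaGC
The AKR1C2 window, at chr10:5003858-5004107 on the minus strand, matched AKR1C1 at 245 of 246 aligned positions (99.6%). AKR1C3 matched AKR1C1 at 184 of 250 aligned positions, gaps included (73.6%). Windows of 300 bases, from 250 before to 50 after a start, were held for 8 of the 10 genes (11 windows) and searched on both strands for 4 motifs. These were the TEAD core GGAATG, found in 14.0% of all 35116 RefSeq windows, the antioxidant response element TGACNNNGC (13.3%), the AP-1 site TGANTCA (7.71%) and the TATA box TATAAA (11.5%). A single stretch can match both the response element and the AP-1 pattern. AKR1C3 held the letters TATAAA, on the strand opposite to the gene, 26 bases before the start of one window, which lies 45012 bases from the start of the transcript used for its coding sequence, and a TEAD core from base 28 after the start of another, 621 bases from that transcript's start, and the other windows of the 8 genes held none of the 4.

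AKR1C1, which reduces progesterone to an inactive alcohol, was the most abundant of the 3 in EV. Its level in the TAZ-4SA tumours had a lowest and a median value of 0 CPM and a highest value of 3.90 CPM, and in the EV tumours it was 123.8, 107.0 and 61.3 CPM. All TAZ-4SA tumours lay below all EV tumours: 4 of the 6 had 0 reads, tumour 1 had 73 and tumour 5 had 2, against 951 to 2643 reads in EV. The mean was 131-fold lower, at 0.743 ± 1.56 CPM in TAZ-4SA against 97.4 ± 32.3 CPM in EV (SD, n = 6 and n = 3), and the log2 fold change was -8.15 ± 1.39 (SE). It was -8.88 without TAZ-4SA tumour 1.

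AKR1C2, which reduces the potent androgen dihydrotestosterone to a weak one and binds bile acids, had a lowest and a median value of 0 CPM and a highest value of 8.48 CPM in TAZ-4SA, against 35.8, 29.1 and 16.3 CPM in EV. Tumour 2 held 84 of the 85 TAZ-4SA reads and tumour 1 the remaining read, and the groups did not overlap. Its mean was 1.42 ± 3.46 CPM in TAZ-4SA against 27.1 ± 9.95 CPM in EV (SD, n = 6 and n = 3), which is 19.0-fold lower. The log2 fold change was -6.42 ± 1.46 (SE), and -7.39 without TAZ-4SA tumour 2.

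AKR1C3, which makes testosterone from androstenedione and forms prostaglandin F, had a lowest and a median value of 0 CPM and a highest value of 7.62 CPM in TAZ-4SA, against 27.2, 24.9 and 12.7 CPM in EV. Only TAZ-4SA tumours 1 and 4 had reads, with 102 and 212. All TAZ-4SA values lay below the EV values, the mean was 2.18 ± 3.44 CPM in TAZ-4SA against 21.6 ± 7.79 CPM in EV (SD, n = 6 and n = 3), and the log2 fold change was -5.32 ± 1.65 (SE). It was -6.005 without TAZ-4SA tumour 1 and -6.10 without TAZ-4SA tumour 4. Of the 3 genes its call was the least steady, since it was lost without TAZ-4SA tumour 2, 3, 5 or 6, without tumours 5 and 6 together, with the replicate number as a block and whenever 1 EV tumour was left out. It was called under 11 of its 20 alternatives and was not among the genes tested at a mean of at least 10 CPM.

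The sum of the 3 genes does not depend on how reads were shared among them. It was 0 to 9.40 CPM in the TAZ-4SA tumours, with a median of 4.09 CPM and 2 tumours at 0, and 187, 161 and 90.3 CPM in the EV tumours. The mean of the sum was 33.6-fold lower in TAZ-4SA. The limit of detection was taken as 3 reads, on average 0.419 CPM in the TAZ-4SA libraries.

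The proportions within the sum varied among the TAZ-4SA tumours and were alike in the EV tumours. In TAZ-4SA tumour 1 the shares were 41.5% AKR1C1, 0.568% AKR1C2 and 57.95% AKR1C3. All reads were AKR1C2 in TAZ-4SA tumour 2 (84 reads) and AKR1C3 in tumour 4 (212 reads). Tumour 5 had only 2 reads, both AKR1C1, which is below the limit of 3 reads. In the EV tumours AKR1C1 made up 66.3%, 66.45% and 67.9% of the sum, AKR1C2 19.2%, 18.1% and 18.0%, and AKR1C3 14.5%, 15.5% and 14.1%. AKR1C3 thus led in TAZ-4SA tumours 1 and 4, AKR1C2 in tumour 2 and AKR1C1 in every EV tumour, while tumour 5 had too few reads to name a leading gene.

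**Figure D2:**
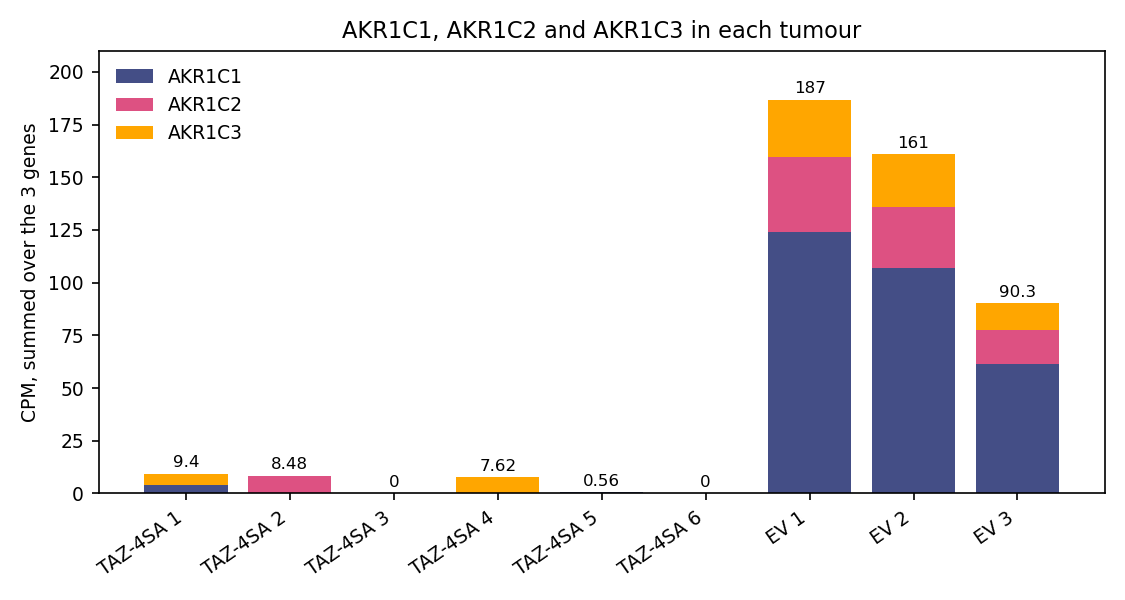
Stacked bars of AKR1C1, AKR1C2 and AKR1C3 in CPM on a linear axis from 0, 1 bar per tumour, the 6 TAZ-4SA tumours left of the 3 EV tumours. The EV bars reach 90.3 to 187 CPM with AKR1C1 as the largest share, and the TAZ-4SA bars reach at most 9.40 CPM.

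Neither AKR1B gene was called. AKR1B1, aldose reductase, turns glucose into sorbitol in the polyol pathway. It lies on chromosome 7 from 134442350 to 134459239 and is 68327 bases from AKR1B10, which spans 134527567 to 134541412. Their coding sequences were 76.1% identical and shared no 50-base window, so that reads of the 2 genes are easier to keep apart than those of the AKR1C genes. AKR1B1 had a lowest value of 54.5, a median of 105.7 and a highest value of 179 CPM in TAZ-4SA, against 143.5, 119.5 and 110.1 CPM in EV. The groups overlapped, with TAZ-4SA tumour 2 above all EV tumours, tumour 1 within their range and tumours 3, 4, 5 and 6 below them. The means were 108 ± 40.6 CPM in TAZ-4SA against 124 ± 17.2 CPM in EV (SD, n = 6 and n = 3), and the log2 fold change of -0.28 ± 0.35 (SE) was not called. Its sign turned to 0.05 with the replicate number as a block.

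AKR1B10 reduces retinaldehyde and aliphatic aldehydes and is found mainly in the gut. It was read in few tumours, with 73, 11 and 18 reads in TAZ-4SA tumours 3, 5 and 6 (4.49, 3.08 and 5.50 CPM), 0 in the other 3, and 2 reads in the EV tumours together, both in EV tumour 3. The groups overlapped at 0 reads and the log2 fold change of 2.15 ± 1.497 (SE) was not called. Of the 102 TAZ-4SA reads, 73 came from tumour 3.

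AOX1 lies on chromosome 2 from 200586014 to 200682241. It was the only gene of the 10 called higher. Its level in the TAZ-4SA tumours was 86.8 CPM at the lowest, 121.8 CPM at the median and 222 CPM at the highest, against 0.328, 0.233 and 0.322 CPM in the EV tumours. The lowest TAZ-4SA value came from tumour 6 and the highest from tumour 3, and every TAZ-4SA library held at least 284 AOX1 reads, including the 2 with the fewest reads in all. The EV tumours had 7, 4 and 5 reads. The mean was 454-fold higher in TAZ-4SA, and the log2 fold change was 8.18 ± 0.56 (SE). It was called under all 21 alternatives.

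ALDH1A1 and ALDH1A3 both turn retinaldehyde into retinoic acid. ALDH1A1, on chromosome 9 from 72900671 to 72953053, had a lowest and a median value of 0 CPM and a highest value of 14.9 CPM in TAZ-4SA, against 33.3, 34.9 and 31.8 CPM in EV. TAZ-4SA tumour 4 held 415 of the 416 TAZ-4SA reads, tumour 1 held the remaining read, and the groups did not overlap. The EV tumours were close together at 33.3 ± 1.58 CPM (SD, n = 3), and the TAZ-4SA mean of 2.50 ± 6.09 CPM (SD, n = 6) was 13.4-fold lower. The log2 fold change was -6.66 ± 1.58 (SE), and -7.76 without TAZ-4SA tumour 4.

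ALDH1A3, on chromosome 15 from 100879831 to 100916626, was lower in TAZ-4SA and read in every tumour. The level was 14.6 CPM at the lowest, 26.3 CPM at the median and 75.4 CPM at the highest in TAZ-4SA, against 126.2, 116.4 and 195.7 CPM in EV. Tumour 4 had the highest TAZ-4SA value, as for ALDH1A1, and it still lay below the lowest EV tumour. The means were 33.0 ± 23.5 CPM in TAZ-4SA against 146 ± 43.2 CPM in EV (SD, n = 6 and n = 3), a 4.43-fold lower mean with a log2 fold change of -2.38 ± 0.53 (SE). Their coding sequences were 66.7% identical and shared no 50-base window.

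ALDH2, the mitochondrial enzyme that clears acetaldehyde, lies on chromosome 12 from 111766933 to 111817532. Its values in TAZ-4SA were 0 CPM at the lowest, 3.43 CPM at the median and 13.15 CPM at the highest, against 9.74, 12.2 and 12.4 CPM in EV. TAZ-4SA tumours 2 and 3 had 0 reads, and tumours 1 and 5 lay within or above the EV range. The log2 fold change of -2.67 ± 1.69 (SE) was not called, and it was -1.94 without TAZ-4SA tumour 2 or 3 and -0.535 without tumours 2, 3 and 4 together, also not called.

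ALDH3A2, the fatty aldehyde dehydrogenase that is mutated in Sjögren-Larsson syndrome, lies on chromosome 17 from 19648136 to 19677596. It had 8.48 CPM at the lowest, 27.6 CPM at the median and 52.7 CPM at the highest in TAZ-4SA, against 43.7, 42.2 and 43.3 CPM in EV. Of the TAZ-4SA tumours, 5 lay below the EV range and tumour 2 above it. The log2 fold change of -0.82 ± 0.55 (SE) was not called and lay close to the median of all genes tested with the deposited values. With quantile normalization it was -0.78, against a median of -0.15, also not called.

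Divided by coding length, the levels can be set in order across genes. The order holds for coding length only, since the transcripts differ more in length, from 1409 bases for AKR1B1 to 6705 for AKR1C1 and 9569 for ALDH2. In the TAZ-4SA tumours AKR1B1 led at 114 ± 42.9 CPM per kb, followed by AOX1 at 33.3 ± 12.4, ALDH1A3 at 21.5 ± 15.3 and ALDH3A2 at 18.4 ± 10.02 CPM per kb (SD, n = 6). The lowest AKR1B1 value, 57.5 CPM per kb, lay above the highest AOX1 value of 55.2, while AOX1, ALDH1A3 and ALDH3A2 overlapped each other. The other 6 genes averaged between 0.767 CPM per kb for AKR1C1 and 3.21 CPM per kb for ALDH2, and each had tumours at 0 reads. In the EV tumours AKR1B1 was at 131 ± 18.2, AKR1C1 at 100.5 ± 33.4 and ALDH1A3 at 95.1 ± 28.2 CPM per kb (SD, n = 3), with overlapping ranges. Then came ALDH3A2 at 28.3, AKR1C2 at 27.9, AKR1C3 at 22.3 and ALDH1A1 at 22.2 CPM per kb, where AKR1C2 and AKR1C3 overlapped both others but ALDH3A2 and ALDH1A1 did not overlap each other. ALDH2 followed at 7.39 CPM per kb, and AOX1 and AKR1B10 were last at 0.0733 and 0.0453 CPM per kb. By these group means AOX1 was second of the 10 in TAZ-4SA and ninth in EV, and AKR1C1 was last in TAZ-4SA and second in EV. Within single TAZ-4SA tumours AOX1 ranked 2 or 3, and AKR1C1, with 0 reads in 4 of them, ranked 6 to 8, ties included.

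The other genes of both families are given by list, each to be read against the 22.4% of all genes tested that were called. From here on, ± after a mean in CPM is the SD over 6 TAZ-4SA or 3 EV tumours. Of 5 other aldo-keto reductase genes tested, 0 were higher, 1 was lower and 4 were not called, and their median log2 fold change was -3.28. The gene that fell was AKR7A3, an aflatoxin aldehyde reductase whose reads may be confused with those of its neighbours AKR7A2 and AKR7L. AKR7A3 had 0 reads in all 6 TAZ-4SA tumours and 4.07 ± 0.49 CPM in EV (SD, n = 3, limma adjusted p = 0.001929). Against a floor of 3 reads per library this is 9.73-fold lower. That floor covers counting error only and sets no lower limit to the change. RARA, for example, had 0 reads in TAZ-4SA tumour 2 and 106.1 CPM in TAZ-4SA tumour 5. AKR1A1, aldehyde reductase, stood at 22.4 ± 17.6 CPM in TAZ-4SA against 69.8 ± 12.3 CPM in EV without passing the test (limma adjusted p = 0.09679). AKR1D1, the steroid reductase of bile acid synthesis, stood at 14.7 ± 17.3 CPM in TAZ-4SA against 0.323 ± 0.0795 CPM in EV (limma adjusted p = 0.1883), and of the 9 fits with 1 tumour left out it was called only without TAZ-4SA tumour 3, which had 0 reads, at a log2 fold change of 4.31 (limma adjusted p = 0.04558), while it was 2.65 without TAZ-4SA tumour 2. AKR7A2 and AKR7L had log2 fold changes of -3.44 and -3.28 and were not called. AKR7A2 was at -2.54 without TAZ-4SA tumour 1 or 4 and at -4.10 without tumour 3, also not called, and AKR7L was called without TAZ-4SA tumour 1, at -3.99 (limma adjusted p = 0.04378).

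Of 11 other ALDH genes tested, 0 were higher, 3 lower and 8 not called, with a median log2 fold change of -1.07. ALDH9A1, which acts on aminobutyraldehyde and betaine aldehyde, fell to 58.1 ± 9.64 CPM in TAZ-4SA, against 123 ± 26.0 CPM in EV (log2 fold change -1.07 ± 0.30 SE, limma adjusted p = 0.02195). ALDH7A1, the antiquitin of lysine breakdown, fell to 70.4 ± 16.6 CPM in TAZ-4SA, against 144 ± 7.79 CPM in EV (limma adjusted p = 0.02263). Both changes were near the median of all genes tested and were not called when any 1 EV tumour was left out. ALDH4A1, a mitochondrial enzyme of proline breakdown, fell to 1.77 ± 2.99 CPM in TAZ-4SA, against 17.4 ± 5.35 CPM in EV (log2 fold change -5.03 ± 1.55 SE, limma adjusted p = 0.0353). The change was -5.79 on the log2 scale without TAZ-4SA tumour 5 (limma adjusted p = 0.009275), and the call was lost without TAZ-4SA tumour 1, 2, 3 or 6 and without each EV tumour (limma adjusted p from 0.05388 to 0.1338), and also without TAZ-4SA tumours 2, 3 and 4 together.

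Some ALDH genes lay just outside the threshold. ALDH1L2, a mitochondrial folate enzyme, stood at 34.8 ± 19.7 CPM in TAZ-4SA against 7.20 ± 1.44 CPM in EV, did not overlap between groups (log2 fold change 2.03 ± 0.68 SE, limma adjusted p = 0.0507), and passed when left without TAZ-4SA tumour 2 (limma adjusted p = 0.01871) or 3 (limma adjusted p = 0.02083). ALDH16A1 stood at 10.2 ± 20.8 CPM in TAZ-4SA against 60.5 ± 19.8 CPM in EV (limma adjusted p = 0.05355). It was called at -6.33 without TAZ-4SA tumour 5 (limma adjusted p = 0.01309), and was at -4.625 and not called without tumour 2 or 3, against -5.30 over all tumours. ALDH18A1, which makes the precursor of proline, stood at 53.5 ± 31.2 CPM in TAZ-4SA against 120 ± 34.3 CPM in EV (limma adjusted p = 0.06405), and passed when TAZ-4SA tumour 1 was left out (limma adjusted p = 0.02766).

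**Figure D3:**
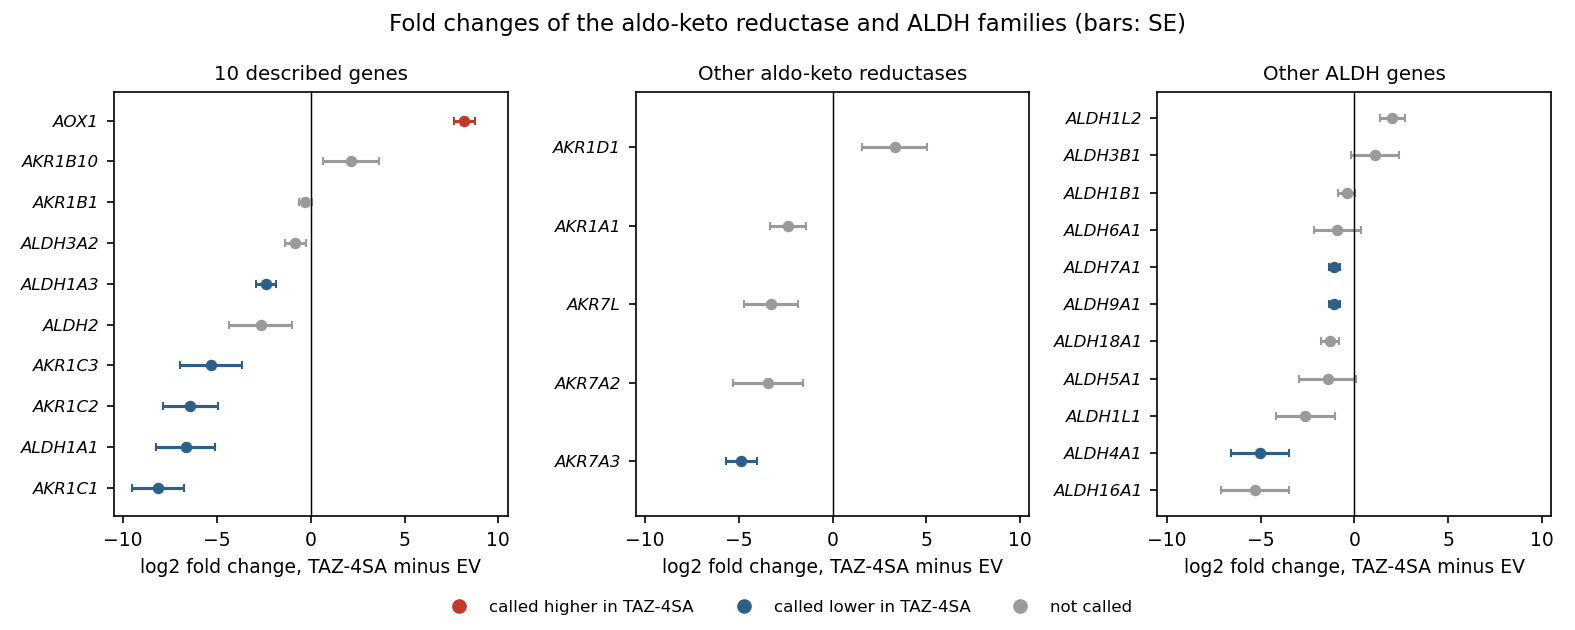
Log2 fold change of TAZ-4SA over EV with its SE for the 10 described genes, 5 other aldo-keto reductases and 11 other ALDH genes, coloured by call. AOX1 is the only gene called higher in the 3 panels, and 9 genes are called lower.

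Other carbonyl, alcohol and retinol oxidoreductases share substrates with these enzymes. Of 17 tested, 1 was higher, 4 were lower and 12 were not called, with a median log2 fold change of -1.81. HSD17B12, which reduces ketoacyl chains in fatty acid elongation, rose to 49.5 ± 14.5 CPM in TAZ-4SA, against 11.7 ± 1.81 CPM in EV (log2 fold change 2.03 ± 0.41 SE, limma adjusted p = 0.004344). The mitochondrial HSD17B10 fell to 51.8 ± 23.4 CPM in TAZ-4SA, against 159 ± 6.87 CPM in EV (limma adjusted p = 0.008679). DCXR, which reduces xylulose and dicarbonyls, fell to 42.0 ± 21.5 CPM in TAZ-4SA, against 137 ± 3.90 CPM in EV (limma adjusted p = 0.02392), and was not called without TAZ-4SA tumour 6, without tumours 5 and 6 together, or with any 1 EV tumour left out. The carbonyl reductase CBR3 fell to 1.22 ± 2.17 CPM in TAZ-4SA, against 13.7 ± 0.893 CPM in EV (log2 fold change -5.06, limma adjusted p = 0.02634). The change was -5.80 on the log2 scale without TAZ-4SA tumour 1, and the call was lost without TAZ-4SA tumour 4 or 6, without tumours 2, 3 and 4 together (at -3.54), or with any 1 EV tumour left out. The 4th, named after its values were seen, was DHRS3, which turns retinaldehyde back into retinol (log2 fold change -5.67 ± 1.83 SE, limma adjusted p = 0.043). It was -6.44 without TAZ-4SA tumour 4 and -6.26 without tumour 5, was -5.01 and not called without tumour 1 or 3, and was also not called without tumour 2, without tumours 2, 3 and 4 together or with any 1 EV tumour left out. DHRS3 also missed the threshold with no filter, at a mean of at least 10 CPM and with no robust step (limma adjusted p = 0.05039, 0.05337 and 0.05288).

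The genes that carry, receive or break down retinoic acid stand downstream of ALDH1A1 and ALDH1A3. Of 11 tested, 0 were higher, 3 lower and 8 not called, with a median log2 fold change of -2.60. RXRG, a retinoid X receptor, had 0 reads in 4 of 6 TAZ-4SA tumours and stood at 1.31 ± 3.08 CPM in TAZ-4SA against 39.0 ± 8.06 CPM in EV (log2 fold change -6.84 ± 1.45 SE, limma adjusted p = 0.005565; -7.75 without TAZ-4SA tumour 1). RARG, a retinoic acid receptor, fell to 15.9 ± 12.7 CPM in TAZ-4SA, against 121 ± 41.5 CPM in EV (log2 fold change -3.28 ± 0.73 SE, limma adjusted p = 0.007361), and was not called without EV tumour 2 (limma adjusted p = 0.0613). The retinol carrier RBP4 had 0 reads in every TAZ-4SA tumour and 2.63 ± 0.731 CPM in EV (limma adjusted p = 0.00379). Against the floor of 3 reads per library, which covers counting error only, this is 6.27-fold lower. RBP4 was not called with quantile normalization, at a log2 fold change of -0.99 (limma adjusted p = 0.2244). The retinol uptake receptor STRA6 and the retinoic acid hydroxylase CYP26B1, both named after their values were seen, had groups that did not overlap and were not called. STRA6 stood at 9.39 ± 12.6 CPM in TAZ-4SA against 68.1 ± 20.8 CPM in EV (limma adjusted p = 0.07365) and was called when TAZ-4SA tumour 5 was left out (limma adjusted p = 0.04675). STRA6 stood at -4.72 on the log2 scale over all tumours and at -3.90 without TAZ-4SA tumour 2 or 4, not called (limma adjusted p = 0.08371 and 0.1006). CYP26B1 stood at 26.5 ± 14.9 CPM in TAZ-4SA against 74.9 ± 2.41 CPM in EV (limma adjusted p = 0.0854) and was called when TAZ-4SA tumour 4 was left out (limma adjusted p = 0.03439).

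The molybdenum cofactor that AOX1 needs is built by the MOCS enzymes and gephyrin. Of 8 genes of the cofactor and of other molybdenum enzymes tested, 0 were called by limma and 0 by limma-voom on the recovered reads, and 2 had an unadjusted p under 0.05. Their median log2 fold change was -0.78, near that of all genes tested. XDH, the xanthine dehydrogenase related to AOX1, stood at 23.1 ± 13.8 CPM in TAZ-4SA against 4.54 ± 1.82 CPM in EV with no overlap (log2 fold change 2.21 ± 0.79 SE, limma adjusted p = 0.06367). It was called without TAZ-4SA tumour 3 (limma adjusted p = 0.04633) or 5 (limma adjusted p = 0.02739), and was named after its values were seen.

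AKR1C genes and AKR1B10 are often read together with other NRF2 targets. Of 28 others tested, 5 were higher, 4 lower and 19 not called, with a median log2 fold change of -0.33. SLC7A11 had a log2 fold change of 3.82 ± 0.54 (SE, limma adjusted p = 0.0005141), GCLM of 3.09 ± 0.49 (limma adjusted p = 0.001031) and TXNRD1 of 1.99 ± 0.37 (limma adjusted p = 0.002732). GCLC and ABCC3, named after their values were seen, were at 1.23 and 3.10 (limma adjusted p = 0.03414 and 0.008616), GCLC was not called when any 1 EV tumour was left out, and ABCC3 was not called by limma-voom. The lower genes were GSTM2, a glutathione transferase with near-identical relatives whose reads are uncertain, at -7.01 ± 1.44 (limma adjusted p = 0.004612), PGD of the pentose phosphate pathway at -1.17 ± 0.30 (limma adjusted p = 0.0158), CBR3, given above, and EPHX1, named after its values were seen, at -1.28 ± 0.37 (limma adjusted p = 0.02637). GSTM2 had reads in TAZ-4SA tumour 5 only and was at -7.96 without it, and PGD and EPHX1 were not called when any 1 EV tumour was left out. NQO1, the best known NRF2 target and also named after its values were seen, stood at 20.46 ± 5.32 CPM in TAZ-4SA against 16.6 ± 2.92 CPM in EV (limma adjusted p = 0.7465). The 3 AKR1C genes thus lay below their EV levels in each of the 6 TAZ-4SA tumours, as did GSTM2, PGD, CBR3 and EPHX1. SLC7A11, GCLM, TXNRD1, GCLC and ABCC3 lay above theirs in each, and the other 19 genes of the list were not called.

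**Figure D4:**
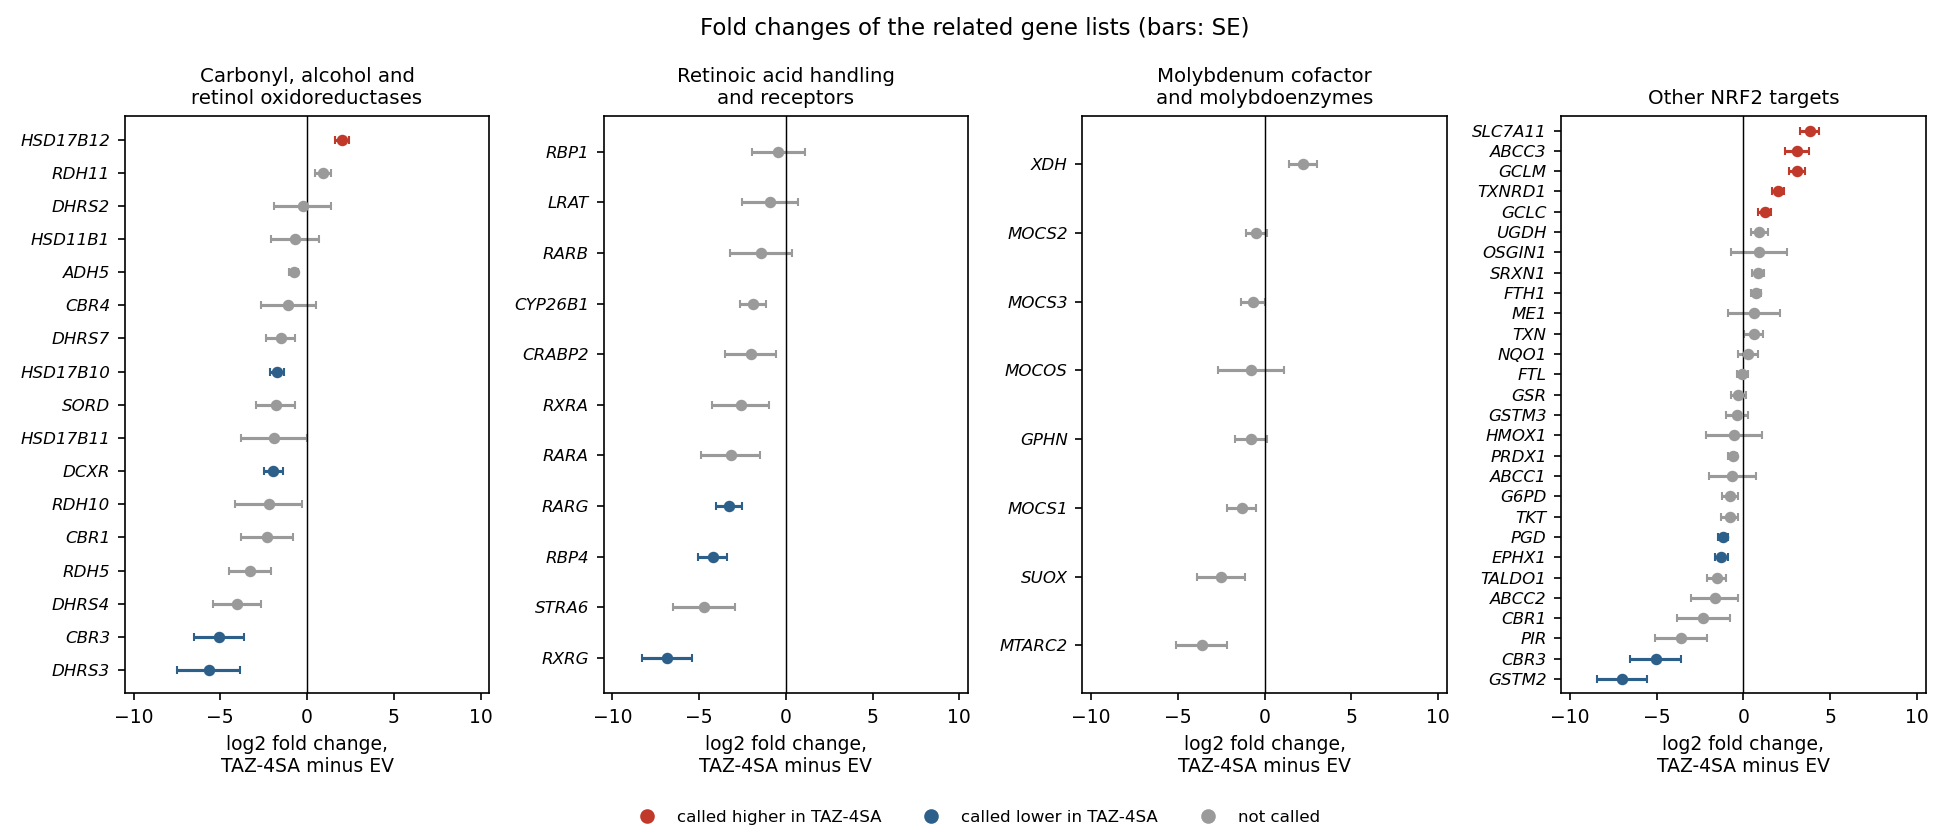
Log2 fold change of TAZ-4SA over EV with its SE for the tested genes of 4 related lists, coloured by call. HSD17B12 is the 1 gene called higher among the oxidoreductases, no gene of the molybdenum list is called, and the NRF2 list holds 5 genes called higher and 4 called lower.

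The genes whose levels ran most like those of the enzymes were sought among the 11991 genes whose mean reached 5 CPM, by Pearson's r of log2 levels over the 9 tumours. These values describe 9 libraries in 2 groups that share their depth and detection. For AOX1 the 3 most alike were MYLK, HDAC9 and NPPB (r = 0.999, 0.997 and 0.996), and 334 genes passed 0.95. For AKR1C1 they were PMEL, CHRM3 and RXRG (r = 0.994, 0.99 and 0.989) of 42 genes past 0.95. For ALDH1A1 they were RSPO4, TMEM253 and PDPN (r = 0.998, 0.996 and 0.995) of 15, and for ALDH1A3 the 9 genes past 0.95 included APRT and GCAT (r = 0.969 and 0.968).

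The same measure over deviations from the group means leaves out the difference between the groups. It gave RPS3, ONECUT2 and CNN1 for AOX1 (r = 0.989, 0.936 and 0.932) and PMEL, LYNX1 and C1QTNF3 for AKR1C1 (r = 0.996, 0.989 and 0.982). For ALDH1A1 it gave PDPN, H1-10-AS1 and RSPO4 (r = 0.997, 0.995 and 0.993), and for ALDH1A3 it gave GCAT, ZSCAN25 and CASC3 (r = 0.974, 0.966 and 0.959). PMEL, PDPN, RSPO4 and GCAT were the genes found both ways. Among the TAZ-4SA tumours, tumour 4 held 415 of the 416 ALDH1A1 reads and tumour 1 held 73 of the 75 AKR1C1 reads. Over deviations, the likeness of other genes to ALDH1A1 and to AKR1C1 thus rests largely on 1 tumour each. No r was recomputed without that tumour. ALDH1A3 had reads in every tumour.

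Summed markers of other cell types did not overlap between the groups for oligodendrocytes and for microglia and macrophages, and overlapped for the other lists. Their calls are to be read against the 22.4% of all genes tested that were called. The part of other cell types in the values of the enzyme genes was not tested. The 6 neuron markers summed to 84.5 to 1291 CPM in TAZ-4SA against 29.7 to 133 CPM in EV, with 1 called higher, and the 6 astrocyte markers to 61.6 to 210.5 CPM in TAZ-4SA against 56.8 to 69.2 CPM in EV, with 1 called higher. The 6 oligodendrocyte markers summed to 29.9 to 382 CPM in TAZ-4SA against 543 to 658 CPM in EV, with 1 called lower, and MOG and MOBP were at 0 reads in every TAZ-4SA tumour, against only 6 and 37 reads in the EV tumours together. The 4 of 8 microglia and macrophage markers in the table summed to 54.7 to 142 CPM in TAZ-4SA against 15.9 to 25.6 CPM in EV, with 1 called higher. The 5 of 6 endothelial markers in the table summed to 0 to 13.15 CPM in TAZ-4SA against 9.48 to 14.6 CPM in EV, with none called. The 6 fibroblast and pericyte markers summed to 225 to 444 CPM in TAZ-4SA against 177 to 306 CPM in EV, with 1 called higher and 1 lower. Whether reads of mouse cells entered these values is not given in the sources used here.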

How the data were processed

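RNA of the 9 tumours was isolated with TRIzol, and libraries came from a SMART-Seq kit and Nextera XT, per the labels' protocols. HISAT2, edgeR and GRCh38 appear in the submitters' processing notes with neither role nor version. The chemistry does not mark strand, and reads of overlapping or antisense genes cannot be told apart. For the counting tool, annotation, gene filter and any separation of mouse reads, details are not stated in the sources at hand.

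The deposited table of the authors holds log2 CPM for 18364 genes (224 lack a symbol), a unit inferred from its values. Their lowest value, 0.145 CPM, was taken as the authors' prior and subtracted on the linear scale, after which 100% of values under 5000 reads were whole multiples of 1 read within 0.1 read, so reads were recovered. CPM here is without the prior. With no molecular identifiers, reads are not independent molecules, and intervals and floors cover counting error only.

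Groups came from the labels, which do not tie tumours to animals, so p-values reflect only the spread between the samples at hand, which may be technical. No 2 tumours of a group agreed within sampling noise. The deposited log2 values of the 15578 genes averaging 1 CPM or more (prior included) were tested in limma 3.58.1 under R 4.3.3 (trend and robust options on), adjusted by Benjamini-Hochberg at 0.05. Fold changes include the prior, which understates changes of genes near it, and can exceed the ratio of mean CPM where some tumours had 0 reads. The fit was also run on simulated reads, which had the same spread in both groups and no group-specific loss of detection. The outcome is not given here, and no support is drawn from it. The design named no count test, and limma-voom on the recovered reads was an alternative.

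The members and lists were chosen with earlier results of these data known. From each list, up to 3 called genes a direction with the smallest p were named, other family genes in a clause, and the 3 genes most like AOX1, AKR1C1, ALDH1A1 and ALDH1A3, of which 1 is not reported here. Identity and windows were computed from GENCODE v29 coding sequences and RefSeq GRCh38.p14 promoter windows. Alternatives were quantile normalization, median-of-ratios scaling, other pseudocounts (0.1 and 2 CPM), a filter at 10 CPM or none, no robust step, array weights, the replicate number as a block, each tumour left out, TAZ-4SA tumours 2, 3 and 4 or 5 and 6 left out, and limma-voom.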

Additional observations from a re-analysis of the deposited data

Results flagged for a closer look

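In 9 of 41 named genes, 1 of the 6 TAZ-4SA tumours stood apart, its gap to the next over the group's range passing Dixon's critical value for 6 samples. Where values are normally spread, chance flags about 1 in 20 groups, and 6 of the 9 genes had a TAZ-4SA median of 0 CPM. Among the enzyme genes these were AKR1C1 at 3.90 CPM in tumour 1, AKR1C2 at 8.48 CPM in tumour 2 and ALDH1A1 at 14.9 CPM in tumour 4, each above a group median of 0 CPM.

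Among related genes, TAZ-4SA tumour 1 stood apart for RXRG at 7.58 CPM, CBR3 at 5.34 CPM and AKR7L at 5.82 CPM. Tumour 5 stood apart for GSTM2 at 7.28 CPM and ALDH16A1 at 52.3 CPM. Tumour 2 stood apart for GCLM at 152 CPM, above a group median of 52.7 CPM.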

How the results depend on the processing

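AOX1, AKR1C1, ALDH1A1 and ALDH1A3 were called in the same direction under all 21 alternatives. AKR1C2 and AKR1C3 were not called with the replicate block, AKR1C3 was also not called without TAZ-4SA replicate 2, 3, 5 or 6, without tumours 5 and 6 or without any 1 EV replicate, and AKR1B10 was called with array weights at 2.47. Over all genes, 3484 were called, 1651 to 4275 with 1 tumour left out and 8161 with array weights. The split was 1405 higher and 2079 lower, against 1920 higher and 1624 lower with quantile normalization, 1392 and 967 with a mean of at least 10 CPM, 604 and 2057 with the replicate block, and 1291 and 3646 with limma-voom. With 1 tumour left out, the calls were 5 to 6 of the 10 enzyme genes, 1 to 2 other aldo-keto reductases, 0 to 4 other ALDH genes, 2 to 8 oxidoreductases, 2 to 4 retinoic acid genes, 0 to 1 molybdenum genes and 5 to 10 NRF2 targets.

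Other ALDH genes called were 5 with quantile normalization, median-of-ratios scaling, a pseudocount of 2 CPM, no filter or limma-voom, and 7 with array weights. Molybdenum genes called were 1 with quantile normalization, a pseudocount of 2 CPM, no filter, no robust step, TAZ-4SA tumours 2, 3 and 4 left out or tumours 5 and 6 left out, and 4 with array weights. Other aldo-keto reductases called were 0 with a mean of at least 10 CPM, where fewer genes are tested, 4 with array weights and 2 with limma-voom. Oxidoreductases called were 3 with a mean of at least 10 CPM and 10 with array weights. Retinoic acid genes called were 7 with array weights or limma-voom and 6 without TAZ-4SA tumours 2, 3 and 4. NRF2 targets called were 17 with array weights. The cause of these moves was not tested.

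Deviations from group means of same-numbered tumours correlated at 0.0313, 0.00372 and -0.0471. Those of differently numbered tumours correlated at -0.0420 to 0.0766. The check showed no pairing by number, and with so few pairs it cannot exclude one. With the replicate block the log2 fold change of AKR1B1 turned to 0.048 (not called), and calls were 1 oxidoreductase, 1 retinoic acid gene, 1 molybdenum gene and 5 NRF2 targets.

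Many genes at 0 reads limit what can be seen in TAZ-4SA, in the deepest library (25.7% of genes tested, 31468135 reads) as in the shallowest (16.7%, 3144861 reads). A gene under 3 reads was taken as not detected, a limit that covers counting error only. Splits among the AKR1C genes depend on unstated counting.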
